A study of Homo sapiens with 12 samples.

Results

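AFP, ALB, TTR, AHSG, FETUB, AMBP, TF, GC, HPX and GSTA1 were the genes examined. They were chosen by name as products of the fetal liver, with earlier results of these data known. Counts of them that passed a test therefore describe the set and are not an independent test of it. All 10 were found among the 61806 genes of the deposited table and among the 19505 that passed the filter on low counts. RNA was taken on Day 12 and Day 16 from H1 cells, a wild-type human embryonic stem cell line, after mesendoderm induction, with 2 libraries in each of 6 groups. NP-IWP2 cells were differentiated with IWP2, an inhibitor of WNT secretion, and were not passaged. The other groups were passaged (dissociated and plated again) on Day 2, after which P-DF cells were left to differentiate without the inhibitor and P-IWP2 cells received it. All groups thus come from 1 cell line, and no group analysed here was static and without IWP2. The labels do not say whether the 2 libraries of a group came from separate cultures, so the p-values measure only the spread between these samples, which may be technical.

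Hepatoblasts, the progenitors of the liver, and the yolk sac endoderm secrete most of the protein of fetal plasma. AFP is a main albumin-type carrier early in gestation, and ALB takes its place as hepatocytes mature. Of the other carriers, TTR transports thyroxine and, with RBP4, retinol. GC binds vitamin D, TF binds iron, HPX binds free heme, and AMBP gives rise to alpha-1-microglobulin and the inhibitor bikunin. AHSG and FETUB are fetuins, which belong to the cystatin superfamily. GSTA1 does not belong with the carriers, since it is a glutathione transferase that stays inside hepatocytes.

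Between 14885589 and 19176239 reads were counted on genes per library (median 16452289), so that a count of 0 allows up to 3 counts, or 0.156 to 0.202 CPM (counts scaled to equal library totals as edgeR's cpm function does, without normalization factors). Intervals and limits of this kind cover counting error only. The library labelled P-IWP2 Day 12 replicate 5 stood apart before any comparison was made. Its log2 CPM correlated with that of replicate 6 at r = 0.917, against 0.985 to 0.991 for the other pairs of replicates. Its cardiomyocyte markers summed to 12917 CPM, against 28607 CPM in replicate 6, and its epicardial markers to 1083 CPM, against 4.35 CPM. Results that rest on it are given with and without it. In these bulk samples, fewer cells of a type and less RNA per cell cannot be told apart.

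Several of the 10 genes lie next to each other or to relatives (GRCh38 positions, as in the deposited table). ALB (chromosome 4, 73397114 to 73421482) and AFP (73431138 to 73456174) are neighbors on the plus strand, 9.66 kb apart with no annotated gene between them. AFM, a vitamin E binding relative, follows AFP after 25.6 kb, and GC lies on the minus strand 1593 kb before ALB. AHSG (chromosome 3, 186613060 to 186621318) and FETUB (186635969 to 186653141) are 14.7 kb apart. GSTA1 (chromosome 6, 52791371 to 52803860, minus strand) is 27.9 kb from GSTA2. Over the longest open reading frames of the GENCODE v44 transcripts, GSTA1 and GSTA2 were identical at 647 of 669 aligned bases (96.7%), with a shared run of 209 bases. Reads could therefore be assigned to the wrong one of these paralogs, and the values of GSTA1 are uncertain to that extent. ALB and AFP were identical at 56.2% of aligned bases and AHSG and FETUB at 53.8%, and no shared run in either pair was longer than 12 bases.

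The 150 bases before the RefSeq start are shown for 4 genes, in which the letters searched for are in capitals. AFP and ALB are shown as neighbors whose change from Day 12 to Day 16 is compared further on, and AHSG and GSTA1 as genes with counts of 0 or 1 after passaging.
AFP, chr4:73436071-73436220, plus strand: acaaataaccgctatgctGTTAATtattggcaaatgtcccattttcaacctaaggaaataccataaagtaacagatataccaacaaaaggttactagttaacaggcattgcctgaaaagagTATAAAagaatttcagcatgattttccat
ALB, chr4:73404137-73404286, plus strand: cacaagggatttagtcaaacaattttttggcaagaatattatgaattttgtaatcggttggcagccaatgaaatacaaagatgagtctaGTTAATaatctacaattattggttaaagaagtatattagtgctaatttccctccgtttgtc
AHSG, chr3:186612910-186613059, plus strand: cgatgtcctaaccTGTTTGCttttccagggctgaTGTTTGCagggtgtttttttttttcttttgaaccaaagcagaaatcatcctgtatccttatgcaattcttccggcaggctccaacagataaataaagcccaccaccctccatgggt
GSTA1, chr6:52803817-52803966, minus strand: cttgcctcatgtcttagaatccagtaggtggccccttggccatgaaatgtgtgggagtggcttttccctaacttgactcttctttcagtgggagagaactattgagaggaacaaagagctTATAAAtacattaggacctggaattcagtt

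The sequences are those of RefSeq (GRCh38.p14), which had an entry for 8 of the 10 genes. The letters searched for on both strands were TATAAA, to which the general factor TBP binds, GTTAAT, which is part of the site of the hepatic homeodomain factor HNF1, and TGTTTNC, the core of forkhead sites such as those of FOXA2. TATAAA began 29 bases before the start in AFP and 30 bases before it in GSTA1. GTTAAT began 132 bases before the start in AFP and 61 bases before it in ALB, and TGTTTGC was found at 137 and 116 bases before the start in AHSG. In windows of 250 bases, TATAAA was found in 3 of the 8 genes and in 10.7% of all 35116 RefSeq promoters, GTTAAT in 3 of the 8 and in 6.23%, and TGTTTNC in 4 of the 8 and in 15.5%. Such matches describe the letters and do not show binding.

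In NP-IWP2 cells all 10 genes were detected in all 4 libraries, and AFP was by far the most abundant of them per length. The FPKM of AFP (CPM per kilobase of exon) was 299 and 211 on Day 12 and 465 and 381 on Day 16, which ranked it between 36 and 64 among all genes of each library. TTR followed with 50.2 and 35.4 FPKM on Day 12 and 86.7 and 67.9 on Day 16, and AHSG with 42.1 and 34.2 FPKM and then 64.2 and 57.2. On Day 12 the ranges of TTR and AHSG overlapped, although TTR was higher within each library. AFP, TTR and AHSG together made up between 94.3% and 96.3% of the summed FPKM of the 10 genes in these libraries.

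GSTA1 came next with 8.52 and 7.70 FPKM on Day 12 and 16.2 and 15.9 on Day 16. Below it on Day 16 stood ALB at a mean of 6.85 ± 2.31 FPKM (SD, n = 2), AMBP at 4.06 ± 0.629 and HPX at 3.49 ± 0.495, and the ranges of AMBP and HPX overlapped. FETUB (1.21 ± 0.283 FPKM), GC (0.685 ± 0.290) and TF (0.255 ± 0.0354) were the lowest. The FPKM of TF is divided by an exon length of 26038 bases in the deposited table, against 1262 to 3631 bases for the other 9 genes, so its place at the bottom of this order depends on that length. On Day 12 the order was similar except for ALB, which at 0.405 ± 0.106 FPKM stood between FETUB (0.820 ± 0.0990) and GC (0.250 ± 0.0141).

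After passaging, these transcripts were close to the limit of detection. Of the 80 values of the 10 genes in the 8 passaged libraries, 39 were a count of 0, a further 16 were counts of 1 to 3, and 25 were above 3. The 10 genes summed to 854 to 1902 CPM in NP-IWP2 libraries and to 1.16 to 9.66 CPM in passaged libraries, where the highest value was that of P-IWP2 Day 12 replicate 5 and the next was 3.82 CPM. FETUB and GSTA1 had no count in any passaged library, and AHSG, AMBP and GC had at most 3 counts in each. TF and HPX were the only 2 genes of the set with counts in all 8. In 39 of 40 comparisons of a gene with a passaged group of the same day, both NP-IWP2 libraries were above both passaged ones in CPM, the exception being TF in P-IWP2 on Day 12. Among all genes tested, both passaged libraries were below both NP-IWP2 libraries for 41.7% (P-DF) and 18.1% (P-IWP2) on Day 12 and for 50.9% and 51.4% on Day 16, so that this separation was common.

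**Figure D1:**
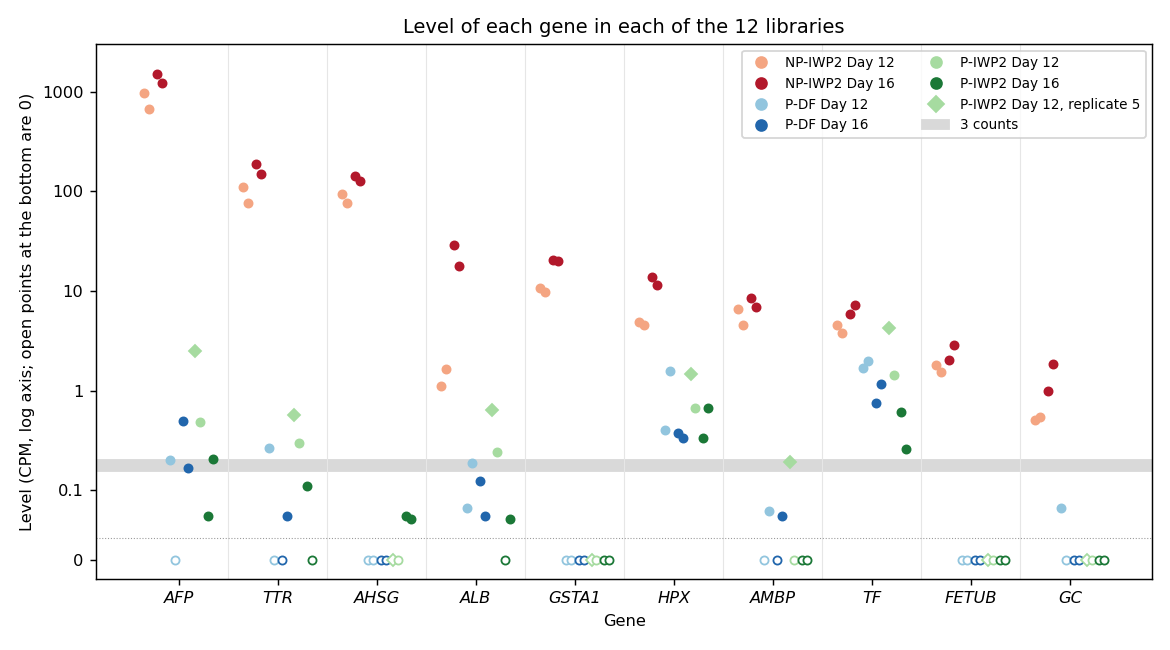
Level of each of the 10 genes (x axis) in each of the 12 libraries (y axis, CPM on a log axis, with open points at the bottom for a count of 0); colors mark the 6 groups, the diamond marks P-IWP2 Day 12 replicate 5, and the gray band marks 3 counts (0.156 to 0.202 CPM). The 10 genes sum to 854 to 1902 CPM in NP-IWP2 libraries and to 1.16 to 9.66 CPM in passaged ones.

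The first question was how far these genes in cells passaged on Day 2 differed from static culture with IWP2. P-DF cells differ from NP-IWP2 cells both in passaging and in the absence of IWP2, and the effects of these cannot be told apart in that comparison. P-IWP2 and NP-IWP2 cells both received IWP2. Steps that may have gone with passaging, such as replating at a split ratio or the ROCK inhibitor the paper describes, cannot be told apart from it. On Day 12, P-DF cells had less RNA of 7 of the 10 genes than NP-IWP2 cells (edgeR quasi-likelihood test, adjusted p below 0.05), and none was higher. Among all 19505 genes tested, 3.32% were lower in this comparison. The filter let most of these genes in through their NP-IWP2 libraries alone, so that a difference in them was built in, and the count describes the set rather than testing it. The median log2 fold change was -7.36 for the 10 genes, or -5.41 with the genes without a count in P-DF at their bound, and -0.0035 for all genes. The count was 10 without P-IWP2 Day 12 replicate 5 (13.6% of all genes were then lower) or replicate 6 (13.5%), which enter this comparison only through the shared estimate of the spread. It was 4 without NP-IWP2 Day 12 replicate 1, P-DF Day 12 replicate 3 or P-DF Day 12 replicate 4, where 0.466%, 0.473% and 0.328% of all genes were lower. It was 5 without NP-IWP2 Day 12 replicate 2 (0.609%) or either NP-IWP2 library of Day 16 (1.31% and 1.32%).

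AFP was counted 17114 and 11040 times in the NP-IWP2 libraries of Day 12 and 3 and 0 times in those of P-DF. Pooled over the 2 libraries of each group, it was 8456 times lower in P-DF (95% counting interval 2893 to 41009, adjusted p = 0.000133). Where a group had 1 to 3 counts, such a ratio rests on them, and the lower end of its interval is the bound to read, which is not on the same footing as the floor used for a group without a count. TTR fell from counts of 1952 and 1262 to 4 and 0, a ratio of 724 (283 to 2659, adjusted p = 0.000114). AHSG had 1667 and 1242 counts in NP-IWP2 and 0 in both P-DF libraries, so that it was at least 874-fold lower, taking 3 counts over the group as the floor (adjusted p = 0.000103). For these 3 abundant carriers the groups were separated by more than 2 orders of magnitude, and the spread between replicates was small beside it.

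Among the lower-expressed genes on Day 12, GSTA1 (192 and 159 counts in NP-IWP2) was at least 105-fold lower in P-DF, with adjusted p = 0.00245. FETUB (32 and 25 counts) was at least 17.1-fold lower, with adjusted p = 0.0230. AMBP fell from 117 and 75 counts to 0 and 1, a ratio of 173 (30.7 to 6869, adjusted p = 0.00721). ALB fell from 20 and 27 counts to 1 and 3, a ratio of 10.6 (3.87 to 40.5, adjusted p = 0.0332). The 3 genes that did not pass were TF (81 and 62 against 25 and 32 counts, log2 fold change -1.09 ± 0.453 SE, adjusted p = 0.207), HPX (87 and 74 against 6 and 25, -2.15 ± 0.537, adjusted p = 0.0588) and GC (9 and 9 against 1 and 0, adjusted p = 0.113).

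On Day 12, 6 of the 10 genes were lower in P-IWP2 than in NP-IWP2 cells, where 1.33% of all genes were lower. They were AFP, TTR, AHSG, GSTA1, FETUB and AMBP. The median log2 fold change of the 10 was -6.85, or -4.99 with the genes without a count at their bound, against 0.0092 for all genes. This comparison used the same NP-IWP2 libraries as that of P-DF, so the results are not independent of each other. The count was 9 without P-IWP2 Day 12 replicate 5, where 9.57% of all genes were lower, and 0 when only the 4 libraries compared were modelled. In that model none of the 18237 genes tested passed, while 1147 had an unadjusted p below 0.05. It was 4 without either NP-IWP2 library of Day 12, where 0.264% and 0.345% of all genes were lower. AFP was at 39 and 8 counts in P-IWP2, 563 times below NP-IWP2 (423 to 766, adjusted p = 0.000251). TTR was at 9 and 5 counts, 216 times below it (128 to 395, adjusted p = 0.000138). The higher count of each was that of replicate 5, so both ratios depend on it. The fitted log2 fold change of AFP was -9.16 with that library and -10.6 without it, and that of TTR was -7.74 and -8.14. AHSG had no count (at least 911-fold lower, adjusted p = 9.3e-05), and neither had GSTA1 (at least 110-fold, adjusted p = 0.00229). FETUB was at least 17.9-fold lower (adjusted p = 0.0283), and AMBP, at 3 and 0 counts, was lower by a ratio of 60.2 (20.3 to 294, adjusted p = 0.0111). All 3 counts of AMBP were in replicate 5, so its ratio rests on that library.

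The 4 genes that did not pass on Day 12 in P-IWP2 were ALB, TF, HPX and GC. P-IWP2 Day 12 replicate 5 held more counts than replicate 6 of AFP (39 against 8, ratio 5.16, counting interval 2.38 to 12.8), TF (67 against 24, ratio 2.95, 1.83 to 4.92) and HPX (23 against 11, ratio 2.21, 1.04 to 5.02). TF in this library (4.29 CPM) lay within the range of NP-IWP2 on Day 12 (3.79 to 4.54 CPM). Without this library ALB (log2 fold change -2.38 ± 0.747, adjusted p = 0.0484), TF (-1.43 ± 0.404, adjusted p = 0.0301) and HPX (-2.72 ± 0.583, adjusted p = 0.00642) passed, and GC did not (adjusted p = 0.0612). With it, the log2 fold change was -1.68 ± 0.541 for ALB (adjusted p = 0.221), -0.60 ± 0.440 for TF (adjusted p = 0.710) and -2.18 ± 0.533 for HPX (adjusted p = 0.0985).

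By Day 16 all 10 genes were below their NP-IWP2 level in P-DF, and all 10 were in P-IWP2. Of all genes tested, 9.86% were lower in P-DF and 9.95% in P-IWP2. For the 10 genes the median log2 fold change was -8.04 (P-DF) and -9.61 (P-IWP2), or -7.64 and -7.29 with the genes without a count at their bound. For all genes it was -0.015 and -0.030. Both comparisons again share the NP-IWP2 libraries. Leaving out any single library left between 8 and 10 genes in P-DF and 9 or 10 in P-IWP2, where 1.9% to 18.1% and 3.05% to 18.5% of all genes were lower.

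AFP was counted 28424 and 19581 times in NP-IWP2 on Day 16, 8 and 3 times in P-DF, and 1 and 4 times in P-IWP2. It was thus 4235 times lower in P-DF (2367 to 8485, adjusted p = 6.5e-05) and 10175 times lower in P-IWP2 (4360 to 31340, adjusted p = 5.9e-05). TTR fell from 3601 and 2376 counts to 0 and 1 in P-DF and to 2 and 0 in P-IWP2, ratios of 5801 (1041 to 229148) and 3167 (876 to 26159). AHSG, with 2715 and 2037 counts in NP-IWP2, had none in P-DF and 1 in each P-IWP2 library. It was at least 1537-fold lower in P-DF, and the ratio in P-IWP2 was 2518 (697 to 20799). Adjusted p was 3.8e-05 for TTR and AHSG in P-DF and 4.3e-05 for both in P-IWP2.

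ALB was counted 555 and 288 times in NP-IWP2 on Day 16, 2 and 1 times in P-DF and 0 and 1 times in P-IWP2. The ratios were 273 (93.0 to 1325, adjusted p = 0.000199) and 893 (160 to 35330, adjusted p = 0.000217). GSTA1 (391 and 323 counts in NP-IWP2) was at least 231-fold lower in P-DF and at least 252-fold lower in P-IWP2. AMBP (163 and 110 counts) was lower by a ratio of 265 (47.2 to 10502) in P-DF, and it was at least 96.4-fold lower in P-IWP2, where it had no count. For FETUB (39 and 46 counts) the bounds were 27.5-fold and 30.0-fold, and for GC (19 and 30 counts) they were 15.9-fold and 17.3-fold. The smaller bounds of FETUB and GC come with the lower counts of these genes in NP-IWP2 cells.

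TF and HPX kept a measurable level after passaging. HPX was at 266 and 183 counts in NP-IWP2 on Day 16, 6 and 6 in P-DF and 6 and 13 in P-IWP2. Its log2 fold change was -4.92 ± 0.610 in P-DF (adjusted p = 0.00146) and -4.34 ± 0.578 in P-IWP2 (adjusted p = 0.00203). TF was at 112 and 116 counts in NP-IWP2, 12 and 21 in P-DF and 11 and 5 in P-IWP2. Its log2 fold change was -2.52 ± 0.476 in P-DF (adjusted p = 0.00928) and -3.63 ± 0.519 in P-IWP2 (adjusted p = 0.00281), the smallest of the 10 genes in both comparisons. TF and GC did not pass in P-DF without NP-IWP2 Day 16 replicate 2, P-DF Day 16 replicate 3 or P-DF Day 16 replicate 4, where the adjusted p of TF was 0.0549, 0.0907 and 0.0622. GC did not pass in P-IWP2 without NP-IWP2 Day 16 replicate 2 or either P-IWP2 library of Day 16, where its adjusted p was at most 0.0815.

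**Figure D2:**
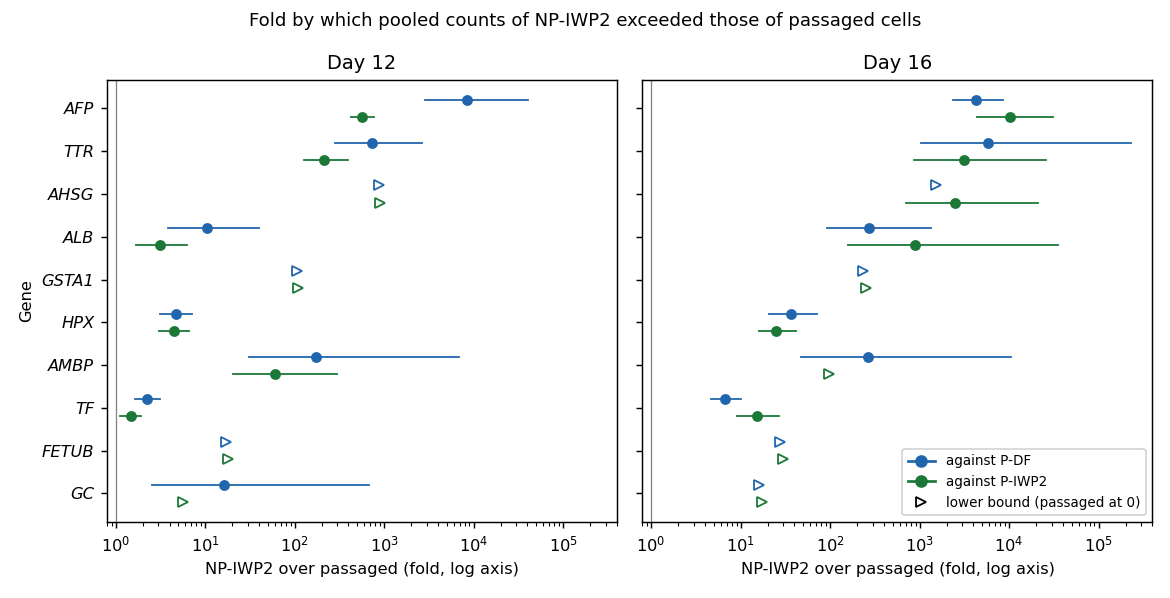
Fold by which the pooled counts of the 2 NP-IWP2 libraries exceeded those of the 2 P-DF (blue) or P-IWP2 (green) libraries for each gene (y axis; x axis on a log scale, scaled to total counts), on Day 12 (left) and Day 16 (right); filled points carry 95% counting intervals, and open triangles are lower bounds for groups with no count. On Day 16 TF has the smallest fold (6.71 in P-DF and 15.1 in P-IWP2), and AFP reaches 4235 in P-DF and 10175 in P-IWP2.

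Over both days together, with the day as a second term, all 10 genes were lower in P-DF (19.8% of 18871 genes tested were lower) and 8 were lower in P-IWP2 (2.14% of 19051). ALB (adjusted p = 0.150) and TF (adjusted p = 0.215) did not pass in P-IWP2. Both passed without P-IWP2 Day 12 replicate 5, with adjusted p of 0.00170 and 0.00588, and the count was then 10, with 14.5% of all genes lower. The count in P-IWP2 was 5 without any single NP-IWP2 library, where 0.645% to 0.777% of all genes were lower. The count in P-DF was 10 without any single library.

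With or without IWP2 after passaging, the 10 genes did not differ detectably. In P-IWP2 against P-DF none of them passed on either day, nor did any of the 19505 genes tested with edgeR (0%). At an unadjusted p below 0.05 there was 1 of the 10 on Day 12, against 2061 of all 19505 genes tested, and 0 on Day 16, against 1567. The gene on Day 12 was AFP (39 and 8 counts against 3 and 0, log2 fold change 3.68 ± 1.07, adjusted p = 0.434). DESeq2 called 0 of the 10 on both days, against 0.887% of all genes on Day 12 and 0.574% on Day 16. Without P-IWP2 Day 12 replicate 6 (29.2% of all genes passed in either direction) or without the filter on low counts (4.18%), AFP passed on Day 12, while without replicate 5 its log2 fold change was 2.23 ± 1.20 (adjusted p = 1). On Day 16 the difference was -1.11 ± 0.554 for TF (adjusted p = 0.662) and 0.57 ± 0.694 for HPX (adjusted p = 0.895). With counts this low, a difference of several-fold between these groups would not have been detectable for most of the set.

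The second question was how the genes changed from Day 12 to Day 16. In NP-IWP2 cells, ALB rose and was the only 1 of the 10 to pass (0.877% of all genes rose). Its counts were 20 and 27 on Day 12 and 555 and 288 on Day 16, a ratio of 17.5 (13.0 to 24.0) with a log2 fold change of 4.21 ± 0.469 (adjusted p = 0.00870). The other 9 genes had log2 fold changes between 0.58 (AMBP) and 1.55 (HPX), and each Day 16 library was above each Day 12 library for all 10 in CPM, as it was for 24.4% of all genes tested. AFP, for example, had a log2 fold change of 0.85 ± 0.443 (adjusted p = 0.329), TTR of 0.97 ± 0.323 (adjusted p = 0.148) and GSTA1 of 1.10 ± 0.246 (adjusted p = 0.104). The median of all genes was 0.0016 and that of the 10 genes 0.91.

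This count depended on how the spread was estimated. Without P-IWP2 Day 12 replicate 5, which is no part of the comparison, 6 of the 10 passed (ALB, AFP, TTR, AHSG, HPX and GSTA1), and 9.23% of all genes then rose. With only the 4 NP-IWP2 libraries in the model, 8 passed (14.8% of all genes rose), and DESeq2 called 4 (3.06%). ALB passed in each of these. It did not pass without NP-IWP2 Day 12 replicate 1, NP-IWP2 Day 12 replicate 2 or NP-IWP2 Day 16 replicate 1. Each of these left a group with 1 library, and hardly any of all genes tested passed there, so this loss was not particular to ALB. The log2 fold change of ALB with single libraries left out ranged from 3.75 to 4.56.

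**Figure D3:**
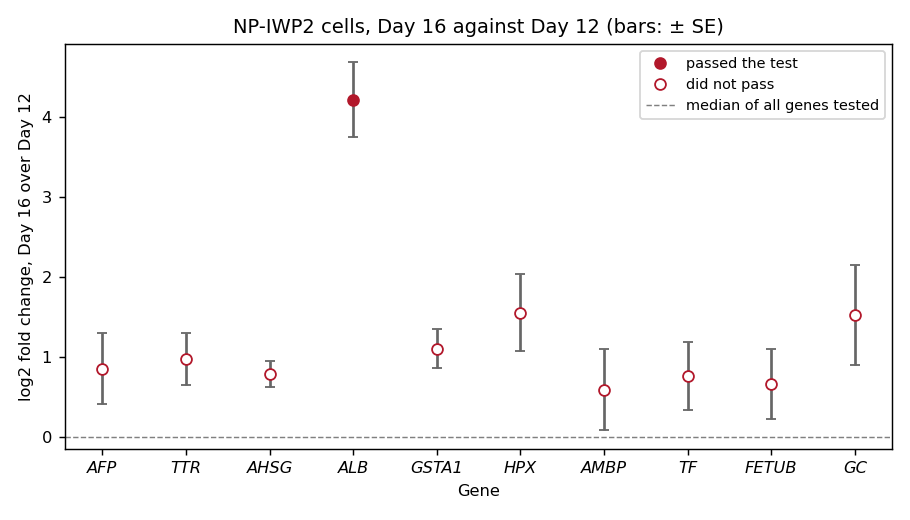
Log2 fold change from Day 12 to Day 16 in NP-IWP2 cells for each gene (points, with bars of ± SE from edgeR on 2 against 2 libraries); the filled point passed the test at an adjusted p of 0.05, and the dashed line is the median of all genes tested. ALB stands at 4.21 and the other 9 genes between 0.58 and 1.55.

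The level of ALB was also compared with that of AFP within each NP-IWP2 library, per base of exon, which removes differences between libraries in the total of such transcripts. ALB was at 0.109% and 0.228% of AFP on Day 12 and at 1.82% and 1.37% on Day 16, and both values of Day 16 lay above both of Day 12. TTR stayed between 16.8% and 18.6% of AFP in the 4 libraries and AHSG between 13.8% and 16.3%. HPX was at 0.448% and 0.591% on Day 12 and at 0.825% and 0.824% on Day 16. AMBP was at 1.15% in both libraries of Day 12 and at 0.968% and 0.948% on Day 16. FETUB was at 1.57% to 2.47% of its neighbor AHSG, with no separation of the days, and GSTA1 was at 40.7% and 49.6% of GSTA2 on Day 12 and at 59.9% and 65.7% on Day 16. These ratios are descriptions, and they were not tested.

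**Figure D4:**
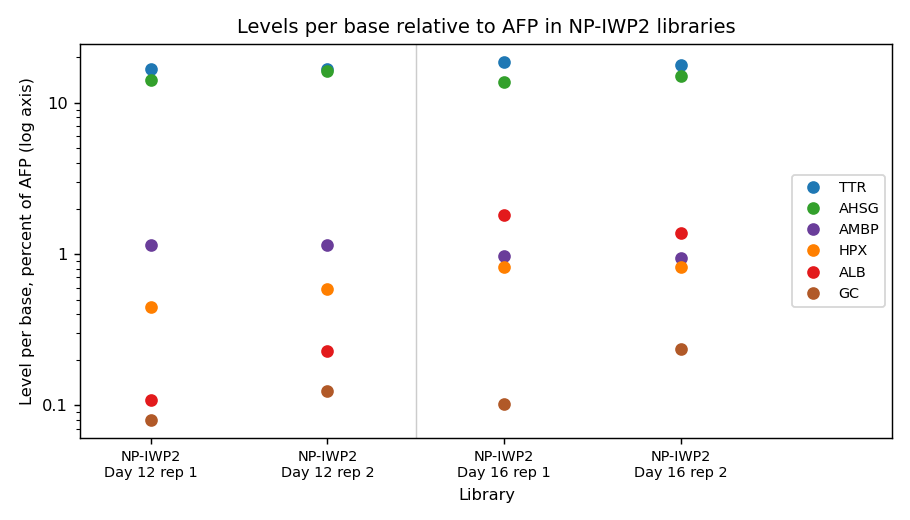
Level per base of 6 genes as a percent of AFP (y axis, log scale) in each NP-IWP2 library (x axis; the vertical line separates the days). ALB moves from 0.109% and 0.228% on Day 12 to 1.82% and 1.37% on Day 16, while TTR remains between 16.8% and 18.6%.

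In P-DF cells none of the 10 genes passed between Day 12 and Day 16 by edgeR, where 13.6% of all genes did. At an unadjusted p below 0.05 there were 0 of the 10, against 5870 of all 19505 genes tested, and DESeq2 called 0, against 16.3% of all genes. AHSG, FETUB and GSTA1 had no count in any of these 4 libraries, and TTR, ALB, AMBP and GC had at most 4 in each, so that a fall of these 7 was not detectable at this depth. In P-IWP2 cells, 3 were lower on Day 16 (14.1% of all genes tested were lower). AFP fell from 39 and 8 counts to 1 and 4 (log2 fold change -2.95 ± 0.965, adjusted p = 0.0487), ALB from 10 and 4 to 0 and 1 (-3.32 ± 0.994, adjusted p = 0.0369), and TF from 67 and 24 to 11 and 5 (-2.27 ± 0.522, adjusted p = 0.0150). None of the 3 passed without P-IWP2 Day 12 replicate 5, where adjusted p was 0.350 for AFP, 0.220 for ALB and 0.0534 for TF and 11.3% of all genes were lower. None of the 10 passed when only the 4 libraries compared were modelled, and neither did any of the 17080 genes tested then. Leaving out P-IWP2 Day 16 replicate 6 left a group with 1 library, where AFP, ALB and TF did not pass and far fewer of all genes did.

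The difference between these changes was tested as an interaction of group (passaged or NP-IWP2) and day. For P-DF, passaging and the absence of IWP2 cannot be told apart in this interaction either. For P-IWP2 against NP-IWP2, ALB passed, with an interaction of -7.53 ± 1.02 on the log2 scale (adjusted p = 0.0122), and 1.06% of all genes passed in this direction. For P-DF none passed (0.482% of all genes passed in either direction). At an unadjusted p below 0.05 there were 2 of the 10, against 2425 of all 19505 genes tested, and DESeq2 called 1, against 2.57% of all genes. ALB had an interaction of -4.49 ± 1.20 (adjusted p = 0.154) and HPX of -2.77 ± 0.810 (adjusted p = 0.194). Without P-IWP2 Day 12 replicate 5, HPX passed for P-DF (adjusted p = 0.0283, against 4.05% of all genes in this direction), and ALB (-6.83 ± 1.61, adjusted p = 0.0202) and TF (-2.20 ± 0.570, adjusted p = 0.0325) passed for P-IWP2 (4.03% of all genes). ALB did not pass for P-IWP2 without either NP-IWP2 library of Day 12 or without P-IWP2 Day 16 replicate 6. Each of these left a group with 1 library, and very few of all genes passed there. Nor did ALB pass with only the 8 libraries of the groups compared, where 0.121% of all genes passed in this direction.

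Other genes of the liver program were taken from lists. These lists were chosen with earlier results of these data known, so their counts are descriptions. Of 24 further genes secreted by the liver, 21 were tested. On Day 12, 17 were lower in P-DF and 14 in P-IWP2, against 3.32% and 1.33% of all genes tested. On Day 16, 19 were lower in each, against 9.86% and 9.95% of all genes. The median log2 fold change of the 21 genes on Day 16 was -7.06 in both, or -5.06 and -5.62 with genes without a count at their bound. The list summed to 824 to 1821 CPM in NP-IWP2 and to 25.4 to 51.6 CPM in passaged libraries. APOB, the scaffold of very low density lipoprotein, was at 15849 and 11926 counts in NP-IWP2 on Day 16 and at 0 to 7 counts in passaged cells. APOA2, of high density lipoprotein, was at 1717 and 1187 counts against 0 to 1.

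APOA1, the main protein of high density lipoprotein, did not go to the limit of detection. It was at 2713 and 1811 counts in NP-IWP2 on Day 16, 244 and 292 in P-DF (log2 fold change -2.80 ± 0.212, adjusted p = 0.000156) and 396 and 338 in P-IWP2 (-2.42 ± 0.208, adjusted p = 0.000297). AGT, the precursor of angiotensin, was chosen after its values were seen. It was at 280 and 232 counts in NP-IWP2 on Day 16, 280 and 439 in P-DF (log2 fold change 0.75 ± 0.461, adjusted p = 0.296) and 423 and 313 in P-IWP2 (0.71 ± 0.460, adjusted p = 0.307).

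Among the regulators, 17 of 18 endoderm and hepatic factors were tested. Of these, 8 were lower in P-DF and 7 in P-IWP2 on Day 16, against 9.86% and 9.95% of all genes. The sum of the list on Day 16 was 164 and 190 CPM in NP-IWP2, 199 and 198 CPM in P-DF and 174 and 122 CPM in P-IWP2. The 3 most abundant of this list were PROX1, TBX3 and CEBPA, of which CEBPA, a factor of hepatocyte differentiation, was lower (172 and 116 counts in NP-IWP2 on Day 16, 11 and 16 in P-DF, log2 fold change -3.13 ± 0.602, adjusted p = 0.00998). PROX1, which is also made in heart cells, did not pass (0.69 ± 0.217, adjusted p = 0.0608), and neither did the T-box factor TBX3 (248 and 232 counts in NP-IWP2, 224 and 232 in P-DF, 0.20 ± 0.417, adjusted p = 0.780). HNF4A, a nuclear receptor that hepatocytes need, was named after its values were seen, with 137 and 119 counts in NP-IWP2 on Day 16, 5 in P-IWP2 Day 12 replicate 5 and 0 in the other 7 passaged libraries. Of 14 genes of mature hepatocytes, 8 were tested, and 6 were lower in P-DF and 5 in P-IWP2 on Day 16, against the same shares of all genes. The list of 14 summed to 30.2 to 47.5 CPM in NP-IWP2 and to 5.53 to 20.0 CPM in passaged cells. CYP3A4, a defining enzyme of adult hepatocytes that was named after its values were seen, was at 1 to 9 counts in NP-IWP2 libraries. As 1 low gene of this list, it does not settle how mature the cells of any group were.

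Markers of other cell types were compared between the same groups. On Day 16, 9.86% of all genes tested were lower and 5.39% higher in P-DF, and 9.95% were lower and 7.15% higher in P-IWP2. Of 8 epicardial markers, 7 were tested on Day 16, and 6 were lower in P-DF and 6 in P-IWP2. The list summed to 444 and 647 CPM in NP-IWP2 on Day 16 and, over both days, to 2.03 to 4.41 CPM in the passaged libraries other than P-IWP2 Day 12 replicate 5. Of 13 cardiomyocyte markers, 6 were higher and 1 lower in P-DF, and 5 higher and 1 lower in P-IWP2. Their sum on Day 16 was 20145 and 16873 CPM in NP-IWP2 and 41623 to 47413 CPM in passaged cells. Of 8 intestinal markers, 5 were tested on Day 16, and 2 were lower in P-DF and 1 in P-IWP2. FABP1, a fatty acid carrier of liver and gut, fell from 337 and 314 counts to 1 and 0 in P-DF. Of 8 epithelial markers, 7 were tested, and 1 was lower in P-DF and 2 in P-IWP2. In lists as short as the intestinal and epithelial ones, 1 or 2 genes do not set the list apart from the shares of all genes. The part of these other cell types in the levels of the 10 genes was not tested.

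**Figure D5:**
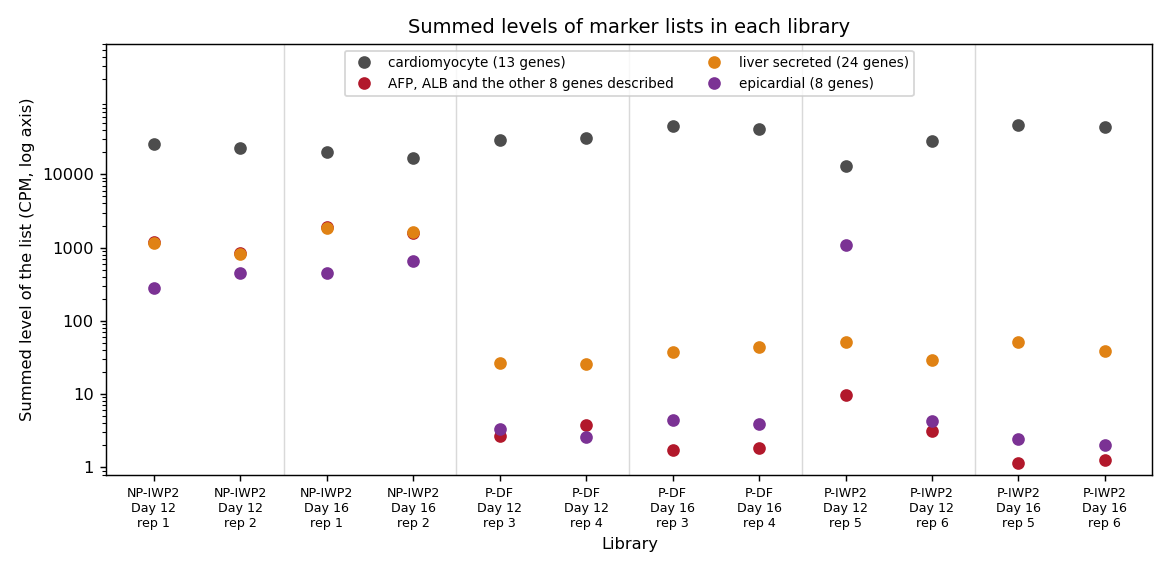
Summed level (y axis, CPM on a log scale) of the 10 genes, of 24 liver-secreted genes, of 13 cardiomyocyte markers and of 8 epicardial markers in each of the 12 libraries (x axis). The 10 genes lie at 854 to 1902 CPM in NP-IWP2 and at 1.16 to 9.66 CPM after passaging, and the epicardial sum of P-IWP2 Day 12 replicate 5 (1083 CPM) is far above those of the other passaged libraries.

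The genes whose log2 CPM over the 12 libraries was most like the mean profile of the 10 were UGT2B11 (Pearson r = 0.995), FGA (0.994), ANGPTL6 (0.994), SULT1E1 (0.992), APOC3 (0.992), XPNPEP2 (0.992), HSD17B2 (0.990), LIPC (0.990), APOA4 (0.990) and HOXB6 (0.990). These r describe 12 libraries that fall into 4 NP-IWP2 and 8 passaged ones, and 148 of the 19505 genes had an r above 0.95. FGA, which encodes the fibrinogen alpha chain, was at a mean of 13.5 FPKM on Day 12 and 30.5 on Day 16 in NP-IWP2. APOA4, an apolipoprotein, was at 34.6 and 110 FPKM, and neither APOA4, APOC3 nor LIPC had a count in any passaged library. Within the 10 genes, r with the mean profile was lowest for TF (0.858) and ALB (0.933) and highest for AMBP (0.991).

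The relatives and neighbors of the 10 genes were mostly low. AFM, next to AFP, was at 8, 3, 9 and 8 counts in the 4 NP-IWP2 libraries and at 0 in all passaged ones, and HRG, next to FETUB, was at 3 to 5 counts in NP-IWP2 and at 0 elsewhere. KNG1 was at 18 and 17 counts in NP-IWP2 on Day 16 and at 0 in passaged cells of that day. GSTA2 was at 456, 310, 632 and 476 counts in NP-IWP2 and at 0 to 2 in passaged cells, and it was lower on Day 16 in both (adjusted p = 0.000295 and 0.000345). GSTA4, a relative in the same cluster, was at 875 and 887 counts in NP-IWP2 on Day 16, 461 and 549 in P-DF (log2 fold change -0.54 ± 0.148, adjusted p = 0.0394) and 538 and 423 in P-IWP2 (-0.69 ± 0.148, adjusted p = 0.0147). GSTA3 and GSTA5 had no count in any library.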

How the data were processed

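Bulk RNA-seq was made of H1 cells in 6 groups of 2 libraries. Per the labels, cDNA was made with a low-input kit and libraries with a SMRTbell kit, and the submitters' processing notes name cutadapt 1.9.1, HISAT2 2.0.1, HTSeq 0.6.1, DESeq2 and hg38. A SMRTbell kit serves long reads and these tools short ones, so the platform was not settled here, and values per length (FPKM, percent per base) depend on it. Whether counting used strand is not given in the sources used here. The deposited table holds a read count per Ensembl gene, without normalization, and FPKM, derived by the authors from those counts (100% of values were recomputed within 0.006 from exon length and library total). The counts ranged from 14885589 to 19176239 per library, with 0 identical libraries.

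Members and lists were chosen with earlier results of these data known. All 12 libraries entered 1 edgeR 4.0.16 quasi-likelihood model (R 4.3.3) with TMM, filterByExpr (minimum count 10), and Benjamini-Hochberg adjustment over all genes tested, at 0.05. For the comparisons over both days, the 8 libraries of the treatments compared were modelled with the day as a covariate. The SE of a log2 fold change was derived from its F statistic. Where a group had no count of a gene, no fitted fold change of that gene is given. Such fitted values do enter the medians of the sets, which are therefore also given with these genes at their bound. Pooled ratios used library totals and exact conditional binomial 95% intervals, with a floor of 3 counts over a group's 2 libraries. Genes planned to be named were the 10 members, the 10 most like their mean profile (log2 CPM, prior count 2), the 3 most abundant of each list, and neighbors and paralogs. This was not carried through for every list. No cardiomyocyte, epicardial or epithelial gene is named, FABP1 alone is named of the intestinal list, and CYP3A4 alone of the mature hepatocyte list. AGT, HNF4A and CYP3A4 were named after their values were seen. The lists were liver secreted, endoderm and hepatic factors, mature hepatocyte, intestinal, epithelial, cardiomyocyte and epicardial genes. Alternatives were DESeq2 1.42.0, its size factors, total counts, no filter, only the groups compared, a replicate block and leaving out each library. Python 3.11.15, pandas 2.3.3, scipy 1.17.1, Biopython 1.88 and matplotlib 3.10.9 were used.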

Additional observations from a re-analysis of the deposited data

Results flagged for a closer look

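The change of ALB with time differed between NP-IWP2 and P-IWP2 cells by the test of the interaction itself, with a value of -7.53 ± 1.02 on the log2 scale (adjusted p = 0.0122, edgeR). ALB rose in both Day 16 libraries of NP-IWP2 relative to both of Day 12 (20 and 27 counts, then 555 and 288) and was at 10 and 4 counts, then 0 and 1, in P-IWP2. The interaction was -6.83 ± 1.61 (adjusted p = 0.0202) without P-IWP2 Day 12 replicate 5. The low counts in P-IWP2 leave the size of this value dependent on a few reads. The interaction did not pass without NP-IWP2 Day 12 replicate 1, NP-IWP2 Day 12 replicate 2 or P-IWP2 Day 16 replicate 6. Each of these left a group with 1 library, and very few of all genes passed there. With only the groups compared in the model it did not pass either (adjusted p = 0.0609, edgeR), where 0.121% of all genes passed in this direction.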

How the results depend on the processing

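In the 60 comparisons of a gene in passaged against NP-IWP2 cells, all 998 values under the alternatives were negative, as in the main analysis. The alternatives reuse the same libraries, and most of these genes were at or near 0 counts after passaging. Their sign was thus largely set in advance, and its constancy is no further support. Counts of genes that passed were the same with DESeq2 size factors and with total counts. Under other alternatives they moved as follows. Shares of all genes are given in either direction. With only the groups compared in the model, 0 passed for P-IWP2 against NP-IWP2 on Day 12 (6 before), with 0% of all genes (1.66% before). For Day 16 against Day 12, 8 passed in NP-IWP2 (1 before), with 28.3% of all genes (1.98% before). In P-IWP2 the same change gave 0 (3 before), with 0% of all genes (27.0% before). The interactions of P-DF and P-IWP2 gave 2 and 0 (0 and 1 before), with 12.6% and 0.194% of all genes (0.482% and 1.84% before). Without the filter, 1 passed for P-IWP2 against P-DF on Day 12 (0 before), with 4.18% of all genes. For the change with day in NP-IWP2, 6 passed (5.07% of all genes), and for the interactions 2 and 5 (2.79% and 6.77%). DESeq2 gave 4 for the change with day in NP-IWP2 (5.6% of all genes) and 1 and 4 for the interactions (2.57% and 7.31%).

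No pairing by equal replicate numbers on Day 12 and Day 16 was visible (correlations of their deviations 0.075, -0.0015 and -0.031 in NP-IWP2, P-DF and P-IWP2). Each value rests on a single difference between libraries per day, so it does not show that the cultures were unpaired. With a replicate block, 2 genes in place of 1 passed for the interaction of P-IWP2, with 1.99% of all genes in place of 1.84%. The other counts under the block stayed within 1.5 times. Passaged and NP-IWP2 cells shared no replicate numbers.

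With each library left out in turn, the count ranged from 4 to 10 for P-DF and from 4 to 9 for P-IWP2 against NP-IWP2 on Day 12, from 8 to 10 and from 9 to 10 on Day 16, and from 10 to 10 and from 5 to 10 over both days. It ranged from 0 to 1 for P-IWP2 against P-DF on Day 12, from 0 to 0 on Day 16, from 0 to 6 for the change with day in NP-IWP2, from 0 to 0 in P-DF and from 0 to 3 in P-IWP2, and from 0 to 1 and from 0 to 4 for the interactions of P-DF and P-IWP2. A group left with 1 library was assumed to vary like the others. The share of all genes that passed also moved with the library left out, so these ranges are not particular to the 10 genes.

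Reversed directions occurred only in comparisons among passaged cells and in the interaction of P-DF, and none of these values passed the test. With total counts, HPX in P-IWP2 against P-DF on Day 12 was 0.10 in place of -0.03. With single libraries left out, the log2 fold change ranged from -0.65 to 1.24 for HPX and from -0.34 to 0.98 for TF in P-IWP2 against P-DF on Day 12, and from -0.083 to 1.04 for HPX on Day 16. From Day 12 to Day 16 in P-DF it ranged from -0.87 to 0.56 for ALB, from -1.86 to 0.027 for HPX and from -4.17 to 2.47 for TTR, and for the interaction of TTR in P-DF from -5.14 to 1.50. The cause of these changes was not tested. Depth limits the bounds, since a gene with few counts in NP-IWP2 cells, such as GC or FETUB, cannot show a large fold.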
